A study of Homo sapiens with 14 samples.

Results

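The genes described here encode small RNAs of the box H/ACA class and small RNAs of the Cajal body, measured in A375 cells, an established human melanoma line. Genes were taken whose symbol begins with SNORA or SCARNA followed by a digit, and they were chosen by their own measured values: an FPKM of at least 1, summed per symbol, in at least 3 of the 14 libraries. FPKM is fragments per kilobase of gene, scaled to the mapped fragments of the library, so it is a level per length. Of 211 such symbols in the tables, 78 met this rule (69 SNORA and 9 SCARNA), among 28307 gene symbols in all, and 42 of the 211 were at 0 in every library. The libraries form a ZC3H18 (Z18) allelic series, in which Z18 is a zinc-finger protein of nuclear RNA surveillance. The bulk control populations (n = 3) had received an empty vector, which per the study's methods encoded Cas9 and no guide RNA, and the bulk CRISPR populations (n = 3) had received Cas9 with a guide against Z18. Both were transiently transfected and selected with antibiotic, so each bulk library is a population of cells whose alleles can differ, not a clone. The single-cell clones comprised 2 wild-type lines (WT), 3 with a loss-of-function mutation on 1 allele (-/+) and 3 with a truncating mutation on 1 allele (trunc/+). Each clone was 1 library, and of the trunc/+ clones 1 came from homology-directed repair and 2 carried other truncations seen in patients, so that a group of clones held different alleles. All 14 libraries were polyA-selected, and no source states that replicates of the bulk populations were separate cultures beyond editing in triplicate, so each p-value rests on the spread among the libraries at hand, part of which may be technical.

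Box H/ACA RNAs fold into hairpins joined by a hinge with the H box and end in a tail with the ACA box. Many, though not all, pair with a target RNA to place a pseudouridine there. Box H/ACA RNAs work in a particle with the pseudouridine synthase dyskerin (DKC1) and with NHP2, NOP10 and GAR1. Most SNORA RNAs act on ribosomal RNA in the nucleolus, whereas SCARNA RNAs act on spliceosomal RNAs in the Cajal body and can be of the H/ACA type, of the C/D type that guides methylation, or of both. Most human genes of both kinds lie in introns, and the RNA is released from the spliced intron by debranching and by exonuclease trimming. Mature small RNAs of this class have no polyA tail, so what a polyA-selected library holds of them can include host RNA that still spans the interval, and these values do not tell the mature RNA and such host RNA apart.

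The genomic sequences of the members carried the letters of their class. In hg38, ACA stood exactly 3 bases before the 3′ end of 57 of 69 SNORA members (82.6%), against 1 of 69 windows of the same length just upstream on the same strand (1.4%). The hinge motif ANANNA began between 35% and 70% of the length in 66 of 69 SNORA members (95.7%) and in 34 of 69 upstream windows (49.3%). Only the transcribed strand was searched, and N is any base. Among the 9 SCARNA members the C box letters TGATGA were present in 6 and in 1 upstream window, against 1 of 69 SNORA members. The Cajal body signal letters TGAG were present in 8 of 9 SCARNA members and in 8 of 9 upstream windows, and some of these matches overlapped TGATGA. The members were 86 to 421 bases long, with a median of 133.5. A match is a description of these letters and not of a working box.

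The sequences below are those on which the results turn: the only gene past the threshold and its neighbour in the same host (SNORA21 and SNORA21B in RPL23), a gene of large difference and its neighbour (SNORA6 and SNORA62 in RPSA), the gene of most negative log2 fold change in trunc/+ against WT (SNORA57), a highly read gene of TAF1D (SNORA40), and the SCARNA of highest level (SCARNA12). All are from hg38, 5′ to 3′, with the ANANNA nearest the middle and the ACA of the last 12 bases in capitals, and for SCARNA12 TGATGA and the end ACA.
SNORA21, chr17:38852863-38852995, minus strand: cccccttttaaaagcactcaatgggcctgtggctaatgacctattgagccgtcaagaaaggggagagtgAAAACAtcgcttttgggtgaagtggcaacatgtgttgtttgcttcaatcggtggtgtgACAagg
SNORA21B, chr17:38851524-38851658, minus strand: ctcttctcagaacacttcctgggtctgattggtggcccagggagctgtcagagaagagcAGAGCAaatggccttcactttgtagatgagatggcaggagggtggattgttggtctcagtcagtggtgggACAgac
SNORA6, chr3:39408391-39408539, plus strand: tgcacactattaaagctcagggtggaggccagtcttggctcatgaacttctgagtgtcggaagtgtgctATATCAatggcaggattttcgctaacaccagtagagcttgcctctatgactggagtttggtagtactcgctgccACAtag
SNORA62, chr3:39411054-39411207, plus strand: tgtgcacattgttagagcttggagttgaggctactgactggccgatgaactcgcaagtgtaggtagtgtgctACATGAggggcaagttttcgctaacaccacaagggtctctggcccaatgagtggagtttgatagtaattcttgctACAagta
SNORA57, chr11:62665422-62665570, plus strand: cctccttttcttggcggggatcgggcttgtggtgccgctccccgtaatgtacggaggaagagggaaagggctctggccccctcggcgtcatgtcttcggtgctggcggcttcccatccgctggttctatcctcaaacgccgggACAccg
SNORA40, chr11:93735110-93735236, minus strand: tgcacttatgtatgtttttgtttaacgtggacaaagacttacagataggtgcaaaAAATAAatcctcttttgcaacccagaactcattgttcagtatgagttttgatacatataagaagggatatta
SCARNA12, chr12:6967337-6967606, minus strand: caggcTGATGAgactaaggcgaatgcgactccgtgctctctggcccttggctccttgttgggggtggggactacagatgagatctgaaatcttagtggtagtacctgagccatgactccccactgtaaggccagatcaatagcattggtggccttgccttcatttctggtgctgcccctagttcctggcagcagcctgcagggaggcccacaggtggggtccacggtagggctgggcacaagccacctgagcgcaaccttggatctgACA
Of these, SNORA21, SNORA21B, SNORA6 and SNORA57 have ACA exactly 3 bases before the end, SNORA62 has 4 bases after it and SCARNA12 has 0, whereas the annotated span of SNORA40 has no ACA in its last 12 bases. SNORA57 has no ANANNA in the middle part of its span. The end ACA of SCARNA12 overlaps the letters CTGA, and whether it serves as an ACA box was not tested.

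Sequencing gave 15615675 (bulk control 3) to 33018360 (trunc/+ 1) aligned fragments per library, and an FPKM of 1 in these genes stood for a mean coverage of 4.04 to 8.79 reads per base. Z18 itself was 38.1, 13.9 and 48.7 FPKM in bulk control and 10.4, 11.9 and 12.8 in bulk CRISPR, which did not overlap (log2 fold change -1.28, SE 0.42, adjusted p = 0.176). It was 23.5 and 21.97 in WT clones, 16.2, 17.1 and 16.1 in -/+ clones and 14.3, 13.98 and 8.70 in trunc/+ clones, so all edited clones lay below both WT clones. Of 8 melanocyte lineage markers, SOX10 read 10.8 to 212.2 FPKM and MITF was above 1 in all libraries but bulk control 2 (0.512), whereas PMEL, MLANA, TYR, DCT and TYRP1 were under 1 in all 14, MLANA and TYR at 0. The bulk control libraries differed from each other more than any other group did in the hosts of these genes, with a median SD of 0.52 on the log2(FPKM + 1) scale against 0.08 to 0.24 elsewhere.

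Levels were low and unequal. The mean over the 14 libraries was 0.478 to 27.0 FPKM, with a median of 3.25, and 31 members had a mean of at least 5 and together 81.6% of the summed level. The 10 highest were SNORA67 (26.97), SNORA57 (24.1), SNORA104 (20.6), SNORA40 (20.2), SNORA70 (19.97), SNORA33 (18.9), SNORA8 (16.9), SNORA24 (16.6), SNORA103 (15.3) and SNORA32 (13.5), which held 40.0% of it. The steadiest of the 31 was SNORA104, with a coefficient of variation of 15.1% over the 14 libraries, and the least steady was SNORA18, with 111%, and the median of the 31 was 44.7%. SNORA104 lies on chr19 in no gene of the tables, and read 22.3, 18.4 and 13.1 in bulk control, 17.9, 22.4 and 25.1 in bulk CRISPR, 22.1 and 20.2 in WT clones, 20.2, 17.4 and 20.3 in -/+ clones and 24.2, 21.8 and 22.6 in trunc/+ clones.

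SCARNA12, which has a C/D and an H/ACA part and lies in PHB2, a prohibitin gene, was the only SCARNA with a mean of at least 5. It read 13.1, 9.69 and 31.5 FPKM in bulk control, 14.3, 13.3 and 14.2 in bulk CRISPR, 8.54 and 9.42 in WT clones, 8.16, 10.7 and 9.59 in -/+ clones and 7.62, 12.5 and 8.97 in trunc/+ clones. Bulk control 3 was the highest library, and the bulk groups overlapped. The other 8 SCARNA members had means of 0.782 to 2.06. At the edge of the rule, the third highest FPKM was 1.01 for SNORA15, 1.06 for SNORA74D and 1.116 for SNORA28, which were included, and 0.977 for SNORA22B, 0.971 for SNORA12 and 0.910 for SNORA2C, which were not. A level of at least 1 was reached in all 14 libraries by 31 members and in exactly 3 by 2, and 2 members met the rule through clones alone and 0 through bulk populations alone.

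**Figure D1:**
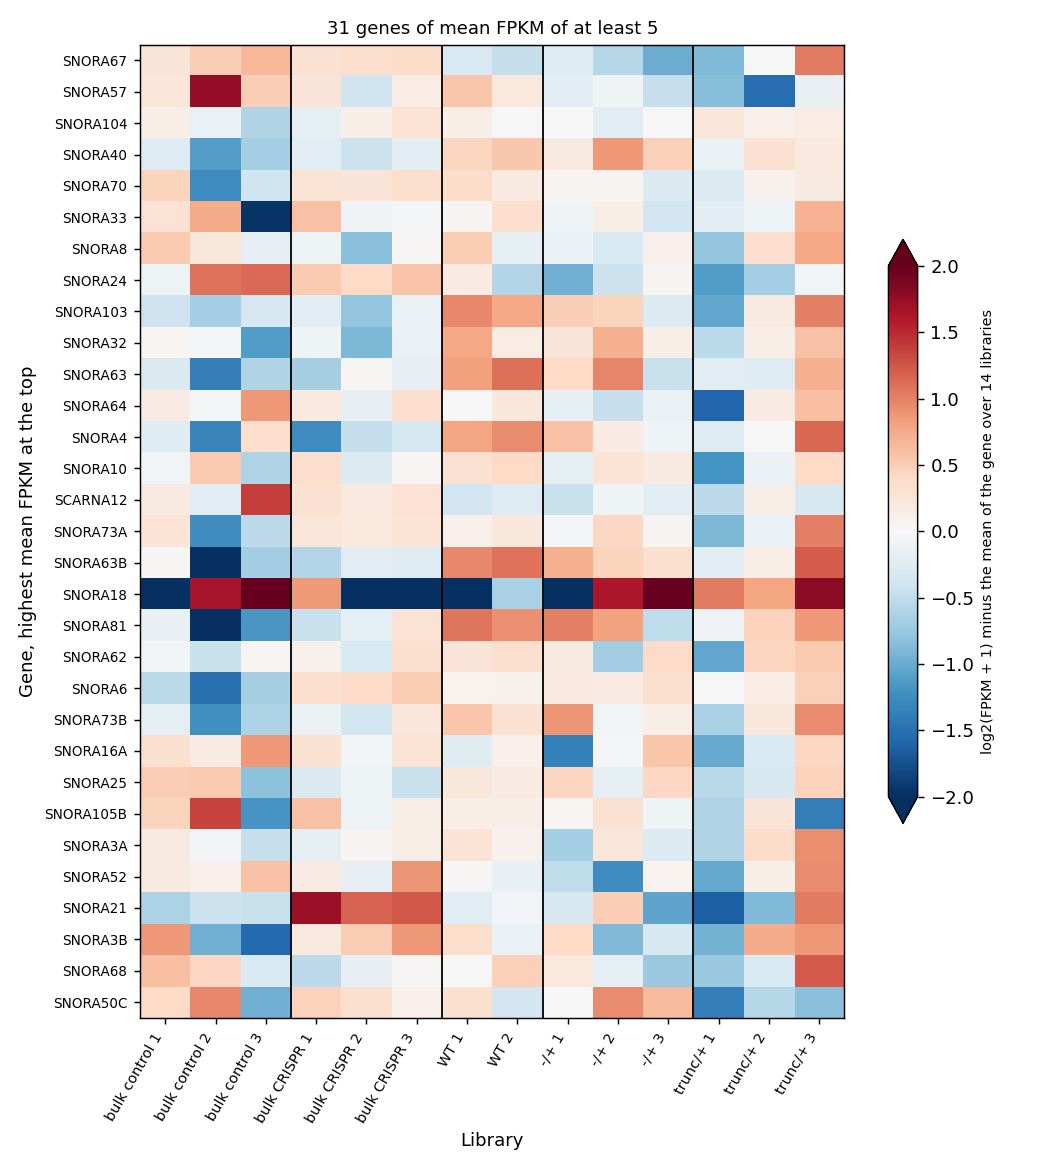
Each cell is the log2(FPKM + 1) of a gene (row, highest mean FPKM at the top) in a library (column) minus that gene's mean over the 14 libraries, for the 31 members with a mean FPKM of at least 5; black lines separate the 5 groups and colours end at 2 on either side. SNORA21 is high in the 3 bulk CRISPR libraries, trunc/+ 1 is mostly blue and trunc/+ 3 mostly red, and SNORA18 switches between libraries of the same group.

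Most members lie inside longer genes. By the spans in the tables, 72 of 78 had a host on the same strand, in 53 hosts, of which 13 were ribosomal protein genes and 11 SNHG genes, a class of noncoding hosts of snoRNAs. In GENCODE release 44, 48 members lay entirely inside exons of another gene on the same strand, 28 of them only through retained-intron transcripts and 17 entirely within exons of other transcript types, 6 lay partly in such exons, and 24 in none. Reads over the 48 cannot be told apart from reads of those transcripts, and in these bulk samples fewer cells with an RNA and less of it per cell cannot be told apart. SNORA50C and SCARNA2 had no host in the tables but lay in such exons. Near-identical copies were few: SNORA105B and SNORA105C shared 98.3% of aligned bases, SNORA73A and SNORA73B in SNHG3 94.1%, and SNORA9 and SNORA9B 91.6%. SNORA105B and SNORA59A were listed at more than 1 position and share a position with another symbol, so their values, and those of the 3 pairs, are uncertain.

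Sums over the members of the same host differed between libraries. The 4 in EIF4A2, a translation initiation helicase, summed to 36.7, 8.63 and 31.2 FPKM in bulk control, 23.5, 35.7 and 37.99 in bulk CRISPR, 81.3 and 88.7 in WT clones, 68.4, 66.5 and 37.3 in -/+ clones and 35.8, 44.3 and 86.7 in trunc/+ clones. The WT clones were above all 3 -/+ clones and above trunc/+ 1 and 2, and bulk control 2 was the lowest of all. In that library SNORA63B read 0.406 and SNORA81 0.314 while SNORA63 read 3.91 from the same gene, and EIF4A2 itself read 102.3. Mean coverage there was 2.02 reads per base for SNORA63B, 1.56 for SNORA81 and 19.4 for SNORA63, so the lower values rest on few reads. The 2 in RPS2 summed to 20.7 to 30.9 in the bulk libraries and 8.13, 24.96 and 35.3 in trunc/+. The 2 in EIF4A1 summed to 34.2 to 44.3 in the bulk libraries and 15.3 to 59.5 in the clones.

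The bulk comparison asked how the members differed when Z18 was edited in a whole population. SNORA21, which lies within RPL23, was the only member past the threshold, in either direction: it read 2.90, 3.50 and 3.42 FPKM in bulk control and 18.8, 12.6 and 13.3 in bulk CRISPR (3.28 ± 0.325 against 14.9 ± 3.36, SD, n = 3 each). The groups did not overlap, and the difference was several times the spread within each (log2 fold change 1.88, SE 0.24, adjusted p = 0.0292, limma with Benjamini-Hochberg adjustment over all 12114 genes tested). The whole table gave 0.347% of genes called in this comparison, and among the 62 members tested 1 (1.61%) was called, a share that rests on SNORA21 alone. The other 16 members did not pass the filter, which needs an FPKM of at least 1 in 3 bulk libraries. Mean coverage over SNORA21 was 20.7, 17.4 and 13.8 reads per base in bulk control and 139.8, 104 and 113 in bulk CRISPR.

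In GENCODE SNORA21 lies entirely in exons of retained-intron transcripts of its host, so its reads can be those of unspliced host RNA. RPL23, which encodes a protein of the large ribosomal subunit, read 267, 343 and 41.1 FPKM in bulk control and 342, 235 and 232 in bulk CRISPR, and the groups overlapped (log2 fold change 0.76, SE 0.70, adjusted p = 0.537). SNORA21B, at another place in RPL23, read 0.758, 0 and 0 in bulk control against 0.857, 2.62 and 0.372 in bulk CRISPR, which also overlap, and it did not pass the filter. In the clones SNORA21 read 4.17 and 4.83 in WT clones, 3.81, 7.53 and 1.92 in -/+ clones and 0.953, 2.29 and 11.4 in trunc/+ clones, where the groups overlapped and the trunc/+ clones held both the lowest and the highest value. The call for SNORA21 was lost when any 1 of 5 of the 6 bulk libraries was left out (adjusted p = 0.0663 to 0.241 by the same test) and held without bulk control 1 (adjusted p = 0.0285), while its log2 fold change stayed between 1.71 and 1.98. In that last fit 5 members passed as higher and 1 as lower, with 982 genes higher and 345 lower in place of 23 and 19. Leaving out any other bulk library lowered the count, to 0 to 6 genes higher and 4 to 7 lower, so the count of calls depends on every bulk library.

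SNORA6 had the next largest difference among members with a mean of at least 5 and groups that did not overlap. Its levels were 6.16, 2.67 and 5.51 FPKM in bulk control and 12.1, 12.6 and 13.8 in bulk CRISPR (log2 fold change 1.31, SE 0.30, adjusted p = 0.112), so it did not pass the threshold. Its host RPSA, which encodes a protein of the small ribosomal subunit, read 2070, 4221 and 2666 in bulk control against 2085, 1939 and 1947 in bulk CRISPR (log2 fold change -0.52, SE 0.36, adjusted p = 0.407), with a fold change of opposite sign. SNORA62, at another place in RPSA, read 9.71, 7.21 and 10.53 in bulk control and 10.9, 8.03 and 12.96 in bulk CRISPR, where the groups overlapped. In clones SNORA6 read 9.87 and 10.04 in WT clones, 10.8, 10.7 and 11.9 in -/+ clones and 9.27, 10.52 and 13.3 in trunc/+ clones. In the fit of all 14 libraries at once SNORA6 passed (adjusted p = 0.0215, log2 fold change 1.31) and SNORA21 did not (adjusted p = 0.0689).

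**Figure D2:**
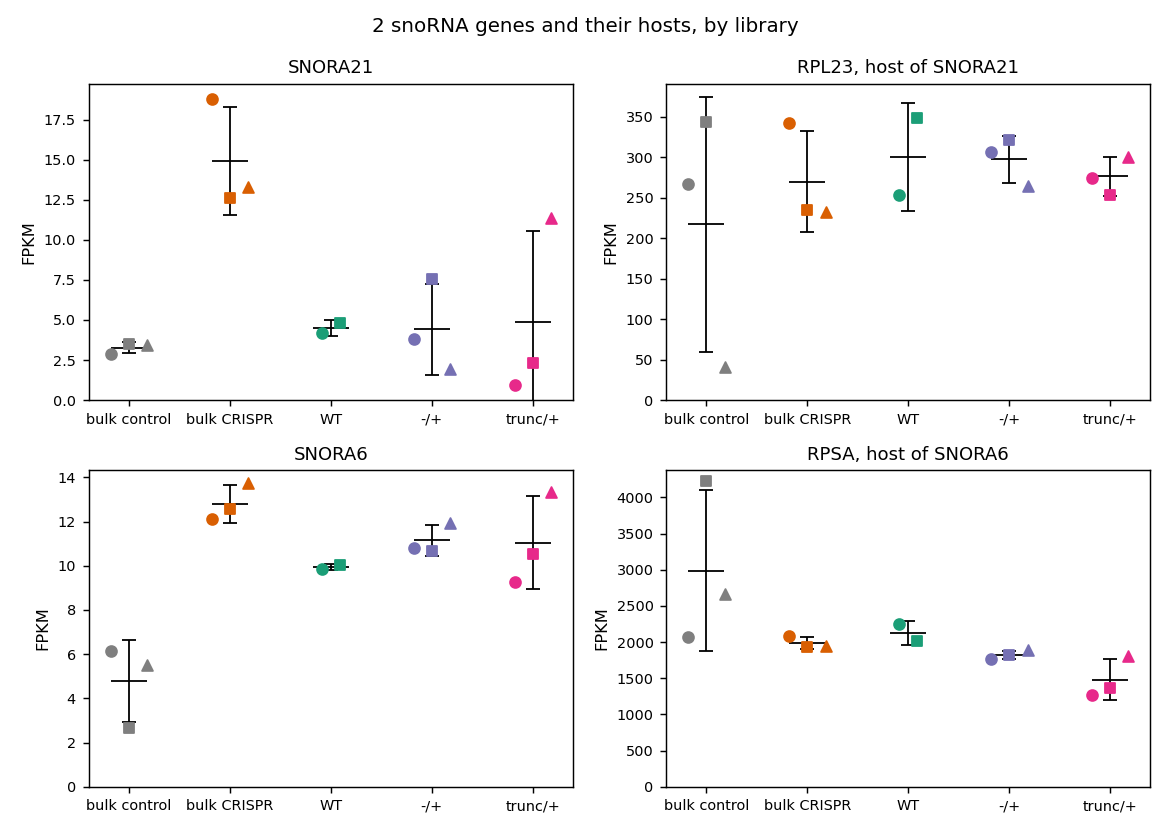
FPKM (linear axis from 0) of SNORA21, its host RPL23, SNORA6 and its host RPSA by group; circles, squares and triangles are replicates 1, 2 and 3, the long bar is the group mean and the whiskers are 1 SD, cut at 0. Both snoRNAs are higher in all 3 bulk CRISPR libraries than in all 3 bulk controls, whereas the bulk groups overlap for both hosts.

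At an unadjusted p under 0.05, 5 of 62 members were higher (8.06%) against 14% of all genes tested, and 2 were lower (3.23%) against 6.93%. These were named after their values were seen. Besides SNORA21 and SNORA6, the higher ones were SNORA58B in UBAP2L (1.36, 0.472 and 0 FPKM against 1.79, 5.61 and 3.11, adjusted p = 0.137), SNORA14B in TOMM20 (adjusted p = 0.189) and SCARNA22 in NSD2 (adjusted p = 0.218). The lower ones were SNORA41 in EEF1B2 (2.77, 3.81 and 6.59 against 0.758, 0.844 and 2.01, adjusted p = 0.131) and SNORA65 in RPL12 (7.09, 8.08 and 6.11 against 4.10, 1.89 and 5.53, adjusted p = 0.218). SCARNA22 was listed at 0 in bulk control 2 and 3 and read 3.43 in bulk control 1, so its controls spanned the level of bulk CRISPR.

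Few members separated the bulk groups. All bulk CRISPR libraries were above all bulk controls for 3 of 62 members (4.84%, against 21.8% of all genes tested) and below for 4 (6.45%, against 10.4%). The median log2 fold change of the 62 was 0.04, and that of all genes tested was 0.18. With 32 members above 0 and 30 below, signs were divided, but under quantile normalization 19 of 62 were above 0, and an unadjusted p under 0.05 was reached by 4 upward and 6 downward. Summed over the 78 members, the level was 479, 477 and 499 FPKM in bulk control and 470.1, 426 and 499 in bulk CRISPR, which overlap. Among RNAs that mostly lack polyA tails, RN7SL2, an RNA of the signal recognition particle, read 1138, 2487 and 1133 in bulk control and 522, 506 and 608 in bulk CRISPR (log2 fold change -1.44, SE 0.36, adjusted p = 0.128). Of the 25 listed RNAs of this kind 7 were tested, 0 were called in either direction, while an unadjusted p under 0.05 was reached by 0 upward and 3 downward, and their part in the results was not tested.

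Some epithelial markers moved with the bulk groups, and their part in the results was not tested. The 8 listed markers summed to 718, 845 and 1110 FPKM in bulk control and 542, 416 and 515 in bulk CRISPR, most of it from KRT18 (514, 607 and 953 against 481, 370.3 and 451, adjusted p = 0.267, limma). Of the 4 tested, KRT7 and KRT8 were called lower (adjusted p = 0.0476 and 0.0292, limma), KRT14 read 2.89, 2.01 and 1.37 against 3.07, 2.73 and 3.08, and EPCAM, CDH1, KRT5 and KRT19 were under 1 in all libraries. The haematopoietic list summed to 55.4 to 130.8 in bulk control and 211.6 to 220.7 in bulk CRISPR, where CD74 read 81.6, 50.2 and 37.4 in control against 159, 156 and 172 in CRISPR, with PTPRC and CD3E at or near 0. The fibroblast list summed to 3.31, 2.60 and 2.65 in control against 9.02, 8.39 and 7.58 in CRISPR, and the endothelial list stayed under 1 in all bulk libraries.

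The summed level of the members spread most among the trunc/+ clones. It was 546 and 534 FPKM in WT clones, 462, 492 and 454 in -/+ clones and 289, 453 and 678 in trunc/+ clones, and trunc/+ 1 was the lowest and trunc/+ 3 the highest of all 14 libraries. Trunc/+ 1 and 3 are set side by side as the extremes of that sum, so the direction among members follows largely from the choice. Among members with a mean of at least 5, 29 of 31 were higher in trunc/+ 3 than in trunc/+ 1. Their median difference was 1.40 on the log2(FPKM + 1) scale. Their 17 hosts differed in the same direction in 16 cases, by a median of 0.47. Over 13050 genes 46.2% were higher in trunc/+ 3, with a median difference of -0.03. C/D box snoRNA genes summed to 793, 1382 and 2222 in trunc/+ 1, 2 and 3. Trunc/+ 1 had the most aligned fragments of all libraries. RNAs without polyA tails summed to 719, 679 and 610.1 in trunc/+ 1, 2 and 3, the opposite order to the members. Most of that sum was RN7SL1 (267, 230 and 203) and RN7SL2 (427, 437 and 387). RN7SK read 11.7, 3.84 and 8.61 and RNU2-1 read 0.991, 2.85 and 2.93, so these RNAs did not share an order. The part of depth or of such RNAs in the member sums was not tested. CD74 read 1131 and 389 in WT clones, 1436, 1164 and 217 in -/+ clones and 923, 203 and 1184 in trunc/+ clones, and the part of such differences between clones in the member sums was not tested.

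**Figure D3:**
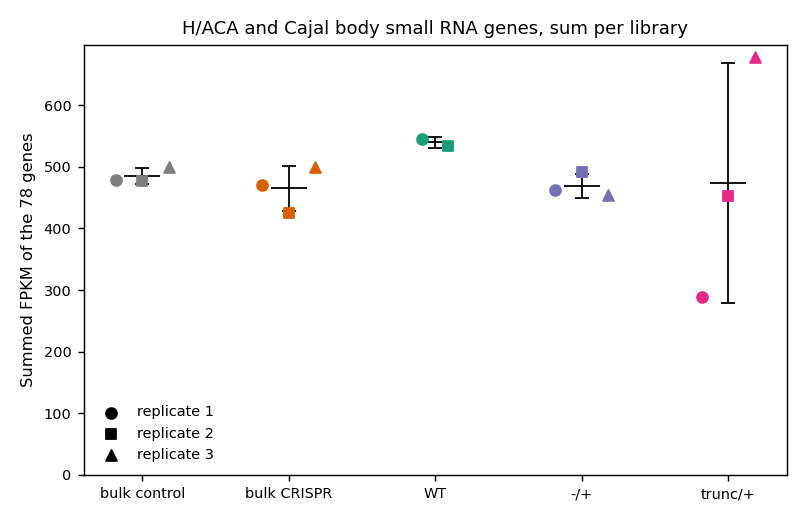
Summed FPKM of the 78 members in each library (linear axis from 0), by group; symbols are replicates, the long bar is the group mean and the whiskers are 1 SD. The trunc/+ clones run from 289.3 to 678 and enclose every other library, and both WT clones lie above all -/+ clones.

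The comparison of trunc/+ with WT asked how the members differed when 1 allele of Z18 was truncated. None of the 76 members tested was called by limma (0 called, against 0.00775% of all genes tested), and at an unadjusted p under 0.05 there was 1 higher (1.32%, against 3.29% of all genes) and 8 lower (10.5%, against 4.3%). The count of 8 became 2 without trunc/+ 1, 5 without trunc/+ 2, 11 without trunc/+ 3, 4 without WT 1 and 3 without WT 2. All trunc/+ clones lay below both WT clones for 18 of 76 members (23.7%, against 15.4% of all genes) and above for 6 (7.89%, against 10.6%). The median log2 fold change was -0.20 (all genes -0.02), 0.06 without trunc/+ 1 and -0.40 without trunc/+ 3. Among the 22 tested members that overlap no exon of another gene it was -0.02, with 11 above 0. Members of 1 host share its transcription and are not independent, so these shares are a description.

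SNORA57, in a host annotated as CSKMT, a citrate synthase methyltransferase, had the most negative log2 fold change. It read 31.3 and 24.4 FPKM in WT and 11.1, 6.61 and 18.8 in trunc/+, with 18.1, 19.9 and 14.99 in -/+ (log2 fold change -1.23, SE 0.36, adjusted p = 0.577, limma). Trunc/+ 3 and all -/+ clones lay between the other trunc/+ clones and WT. CSKMT had the same sign, with 5.74 and 4.91 in WT and 2.58, 3.22 and 3.95 in trunc/+ (log2 fold change -0.58, SE 0.19, adjusted p = 0.612). In the bulk populations SNORA57 was 24.9, 73.2 and 29.95 in control, where bulk control 2 stood far above the others, and 25.2, 15.6 and 23.2 in bulk CRISPR.

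The other members named by size in this comparison did not pass either. SNORA50C read 5.73 and 3.16 FPKM in WT and 1.09, 2.64 and 2.01 in trunc/+ (log2 fold change -0.90, SE 0.36, adjusted p = 0.656). SNORA63, in EIF4A2, read 21.5 and 26.5 in WT against 9.96, 9.73 and 19.8 in trunc/+ (adjusted p = 0.685). SNORA81, in the same gene, read 19.4 and 17.3 in WT against 8.21, 12.4 and 16.7 in trunc/+ (adjusted p = 0.773). In both, trunc/+ 3 came nearest to the WT clones. SNORA40 in TAF1D read 26.00 and 28.1 in WT and 17.1, 23.7 and 21.8 in trunc/+ (adjusted p = 0.704), below WT in all 3 clones.

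The comparison of -/+ with WT asked the same for loss of 1 allele, with the same 2 WT clones as controls. None of 76 members was called (0, against 0.00775% of all genes, by limma), and at an unadjusted p under 0.05 there were 2 higher (2.63%, against 0.713%) and 1 lower (1.32%, against 1.11%). All -/+ clones lay below both WT clones for 13 members (17.1%, against 8.44% of all genes) and above for 3 (3.95%, against 6.16%). The median log2 fold change was -0.19, against -0.02 for all genes. SNORA44, in the noncoding host SNHG12, was chosen after its values were seen: it read 0.852 and 1.80 FPKM in WT and 5.83, 5.33 and 7.42 in -/+, with no overlap (log2 fold change 1.65, unadjusted p = 0.000978 by limma, adjusted p = 1.00). In trunc/+ it read 1.93, 2.36 and 4.58, also above both WT clones. SNHG12 itself read 21.4 and 21.3 in WT and 16.5, 22.7 and 30.99 in -/+.

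Named by size in this comparison, 6 members were lower in every -/+ clone than in both WT clones, with adjusted p = 1.00 for each by limma. SNORA4 in EIF4A2 read 20.4 and 23.04 FPKM in WT against 17.5, 12.96 and 10.7 in -/+. SNORA63B in the same gene read 19.95 and 21.9 against 16.5, 13.6 and 12.4. SNORA103 read 27.97 and 24.2 in WT against 19.8, 19.1 and 11.3 in -/+, and its host GAS5 is a noncoding growth-arrest gene that carries many snoRNAs. SNORA64 in RPS2 read 12.4 and 14.5 in WT against 10.7, 8.70 and 11.2 in -/+. SNORA70 in RPL10 read 25.1 and 21.8 against 19.9, 19.9 and 15.6. SNORA57 is given above. In the order SNORA4, SNORA63B, SNORA103, SNORA57, SNORA64 and SNORA70, the log2 fold changes were -0.65, -0.54, -0.65, -0.63, -0.37 and -0.33, and none reached 2 standard errors. These standard errors pool all clone groups, trunc/+ included. The median SD of members on the log2(FPKM + 1) scale was 0.73 in trunc/+, 0.30 in -/+ and 0.13 in WT, for members with a mean FPKM of at least 5 in the group. The count of 1 member lower at an unadjusted p under 0.05 became 2 without trunc/+ 1, 2 without trunc/+ 2 and 4 without trunc/+ 3, by limma. It also became 2 without -/+ 1, 3 without -/+ 2 and 3 without -/+ 3, so a rise was not particular to leaving out a trunc/+ clone.

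Set against each other, trunc/+ and -/+ gave 0 called members of 76 and 0.0% of all genes called by limma. At an unadjusted p under 0.05 there were 2 higher (2.63%, against 3.12%) and 4 lower (5.26%, against 3.16%), and the groups did not overlap for 4 higher (5.26%, against 4.79%) and 4 lower (5.26%, against 6.45%). The median log2 fold change was -0.05, 0.21 without trunc/+ 1 and -0.26 without trunc/+ 3. SNORA50C, on chr17 in no gene of the tables, differed most: 4.42, 9.397 and 7.35 FPKM in -/+ and 1.09, 2.64 and 2.01 in trunc/+ (log2 fold change -1.45, SE 0.32, adjusted p = 0.785). SNORA104, the other member the naming rule gave here, read 20.2, 17.4 and 20.3 in -/+ against 24.2, 21.8 and 22.6 in trunc/+, higher in every trunc/+ clone by a small step (log2 fold change 0.24, SE 0.12, adjusted p = 0.801).

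TAF1D, a subunit of the RNA polymerase I initiation factor SL1, hosts 6 members, more than any other gene. They summed to 67.8, 71.3 and 79.3 FPKM in bulk control, 61.03, 38.6 and 51.4 in bulk CRISPR, 86.9 and 73.8 in WT clones, 66.4, 95.3 and 99.1 in -/+ clones and 51.8, 78.7 and 106 in trunc/+ clones. All bulk CRISPR sums lay below all bulk controls, whereas without SNORA18 the sums were 67.7, 54.1 and 38.8 in bulk control against 51.6, 38.5 and 51.3 in bulk CRISPR, which overlap. SNORA18 read 0.0775, 17.1 and 40.5 in bulk control, 9.42, 0.0796 and 0.073 in bulk CRISPR, 0.0843 and 2.69 in WT clones, 0.108, 16.8 and 25.1 in -/+ clones and 10.9, 9.04 and 19.1 in trunc/+ clones. Its mean coverage was under 1 read per base in 5 libraries (bulk control 1, bulk CRISPR 2 and 3, WT 1 and -/+ 1) and 23.1 to 163.8 in the other 9, with none between. The low and the high libraries occurred in the same group in 4 of the 5 groups, all 3 trunc/+ clones being high.

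The other 5 genes within TAF1D showed no such gap. In the 5 libraries where SNORA18 was low, SNORA40 read 13.8 to 26.00 FPKM, SNORA8 8.599 to 23.5 and SNORA32 6.34 to 22.4, and TAF1D itself 54.1 to 83.9. The log2 fold change of SNORA18 was 2.74 for trunc/+ against WT (SE 1.26, adjusted p = 0.658 by limma) and -2.02 for bulk CRISPR against bulk control (adjusted p = 0.396), the largest in size of any member in either comparison and in neither case past the threshold. No other member met the same description, a coverage under 1 in at least 2 libraries and of at least 10 in all others. Gaps within a group were still not particular to SNORA18. Coverage of SCARNA13 was 0.621, 5.98 and 17.6 reads per base in -/+ clones, and the histone gene H2AC19 read 0.0759, 157 and 0.0074 FPKM in bulk control. The histone gene H2AC18 read 204, 156 and 123 FPKM in the same libraries, and how reads were assigned between H2AC18 and H2AC19 was not tested.

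**Figure D4:**
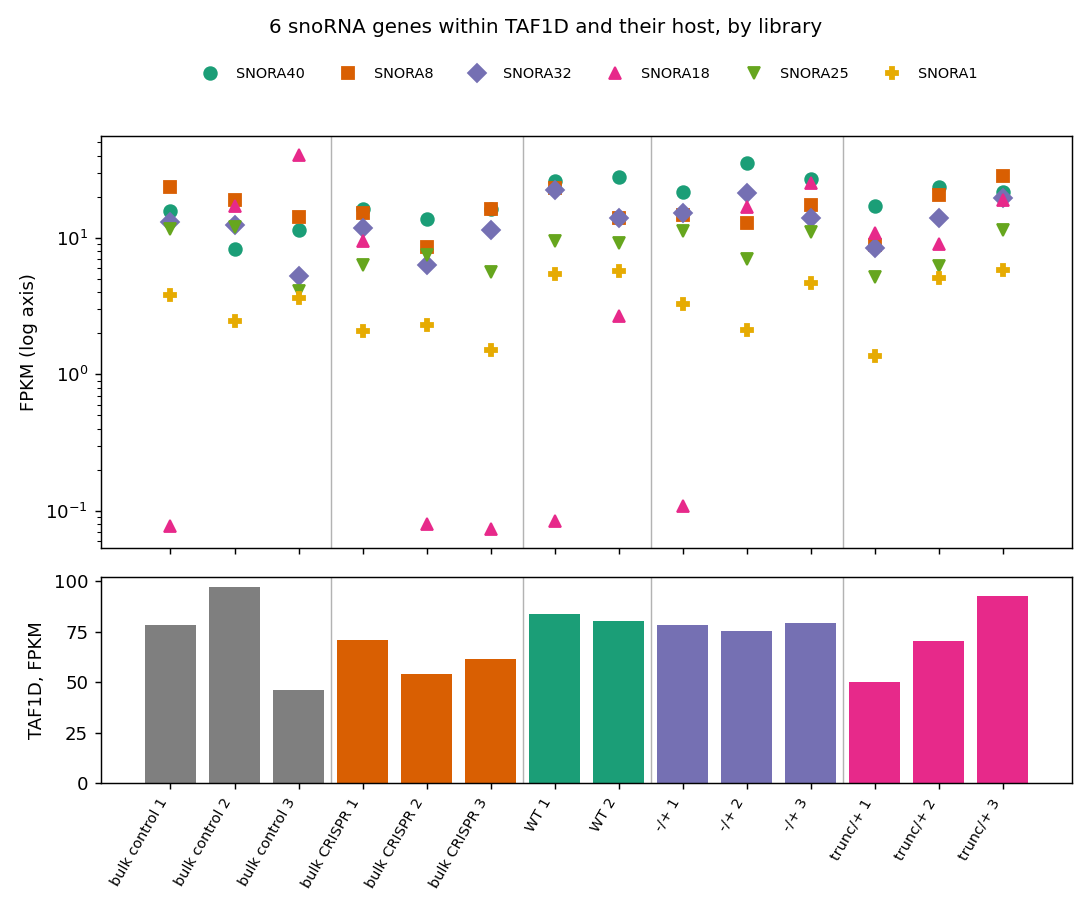
Upper panel, FPKM on a log axis of the 6 snoRNA genes within TAF1D in each of the 14 libraries; lower panel, FPKM of TAF1D on a linear axis, bars coloured by group. SNORA18 lies at or under 0.108 in 5 libraries and between 2.69 and 40.5 in the others, while the 5 neighbours and TAF1D have no such gap.

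Differences of members were compared with those of their hosts as a description, since both come from the same libraries and several members share a host. For bulk CRISPR against bulk control, 31 of 55 members with a tested host had its sign, with r = 0.17 (Spearman 0.09). For trunc/+ against WT it was 52 of 69, with r = 0.38 (Spearman 0.49). The values were 44 of 69 (r = 0.21, Spearman 0.28) for -/+ against WT and 37 of 69 (r = 0.17, Spearman 0.18) for trunc/+ against -/+. The clone comparisons share libraries, so these are 3 readings of the same 8 clones. The median absolute log2 fold change was 0.40 for members and 0.22 for hosts in the bulk comparison, and 0.37 and 0.25 for trunc/+ against WT. The median standard error was also larger for members, 0.42 against 0.21 in the last of these.

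**Figure D5:**
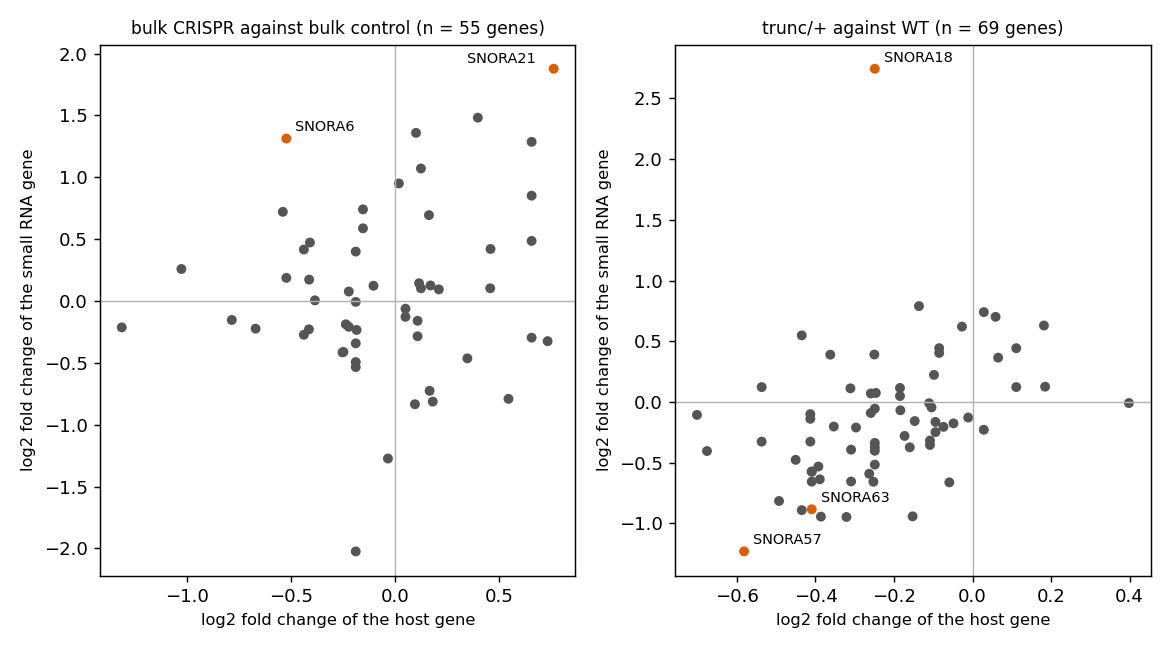
Each point is a member with a tested host: its log2 fold change (vertical) against that of its host (horizontal), for bulk CRISPR against bulk control (55 genes) and trunc/+ against WT (69 genes). SNORA21 and its host RPL23 both have positive values, SNORA6 lies opposite to its host, and 52 of the 69 points of the right panel share the sign of their host. The value of RPL23 comes with 1 low control: it read 267, 343 and 41.1 FPKM in bulk control and 342, 235 and 232 in bulk CRISPR.

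The proteins that bind and build the particle were read in every library. DKC1, the pseudouridine synthase, read 147, 148 and 161 FPKM in bulk control and 106, 103 and 116 in bulk CRISPR, with no overlap (log2 fold change -0.49, SE 0.19, adjusted p = 0.214). It read 109 and 116 in WT clones, 85.2, 118 and 122 in -/+ clones and 80.04, 89.3 and 90.4 in trunc/+ clones. NHP2 read 239.5 and 288 in WT and 182, 194 and 220.0 in trunc/+ (log2 fold change -0.41, SE 0.16, adjusted p = 0.652), below WT in all 3 clones. NOP10 and GAR1 overlapped between groups in each of the 4 comparisons, and NOP10 read 69.8 in bulk control 3 against 282.9 and 399.2 in the other controls. By limma 0 of the 4 passed in any comparison, with 1 lower at an unadjusted p under 0.05 in the bulk comparison and 1 in trunc/+ against WT.

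The assembly list held NAF1, SHQ1, RUVBL1, RUVBL2, NOLC1 and TCOF1. None of the 6 was called in any comparison (0 by limma), and 3 were lower at an unadjusted p under 0.05 in trunc/+ against both WT and -/+: the assembly helicases RUVBL1 (log2 fold change -0.70 against WT, adjusted p = 0.536) and RUVBL2 (-0.67, adjusted p = 0.597), and TCOF1, a nucleolar factor (-0.66, adjusted p = 0.536). RUVBL1 read 94.7 and 107 FPKM in WT and 57.2, 68.3 and 59.7 in trunc/+. The 6 genes summed to 411 and 458 in WT and 259, 345 and 299 in trunc/+, with trunc/+ 1 lowest.

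Among 9 tested Cajal body genes 0 were called in any comparison by limma, and at an unadjusted p under 0.05 there was 1 lower (GEMIN2) in the bulk comparison, 2 in trunc/+ against WT, 0 in -/+ against WT and 3 in trunc/+ against -/+. GEMIN2, of the complex that assembles spliceosomal particles, read 11.9 and 13.1 FPKM in WT and 4.35, 7.91 and 7.501 in trunc/+ (log2 fold change -0.86, SE 0.23, adjusted p = 0.559). WRAP53, which brings RNAs with the Cajal body signal to that body, read 17.7, 22.95 and 36.2 in bulk control and 16.7, 15.9 and 18.2 in bulk CRISPR. Of the 9 debranching and trimming genes, which include DBR1 and PARN, 0 were called and 0 passed an unadjusted p under 0.05 in any comparison. Of 12 cap-binding and exosome-targeting genes, Z18 among them, 0 were called, with 1 higher (SRRT) and 1 lower (Z18) at an unadjusted p under 0.05 in the bulk comparison and 2 lower (Z18 and MTREX) in trunc/+ against WT.

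TERC, the H/ACA-type RNA of telomerase, stayed near the detection limit: it read 0.149, 0.268 and 0.165 FPKM in bulk control, 1.25, 0.0809 and 0.858 in bulk CRISPR, 0.628 and 0.743 in WT clones, 0, 1.06 and 0.0525 in -/+ clones and 0.227, 0 and 0.0906 in trunc/+ clones, and was not compared. Histone genes, most of whose mRNAs also lack polyA tails, summed to 309 and 422 in WT and 468, 396 and 222 in trunc/+, with 0 of 26 tested called and 2 higher at an unadjusted p under 0.05. Their order in the trunc/+ clones, highest in trunc/+ 1 and lowest in trunc/+ 3, was opposite to that of the member sums.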

How the data were processed

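The 14 polyA-selected libraries were grouped by the genotype label of each sample. Per the study's methods, the authors mapped reads to hg38 and ran SQuIRE, and the submitters' processing notes name cutadapt 4.6; other versions were not given in the sources used here. Gene tables as deposited hold FPKM, TPM and mean coverage (signal) per RefSeq gene, made by the authors with StringTie, and the DESeq2 test of the study needs counts, so it was not used here. The aligned fragments of each library came from the deposited repeat tables, whose other columns were not used. 0 columns were left out for lack of a sample. The authors normalized FPKM to library size, and for members FPKM was coverage times 1 constant per library, so a low level rests on few reads.

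Rows of 1 symbol were added up, and limma 3.58.1 (R 4.3.3, trend) was applied to log2(FPKM + 1), which understates the change of low genes. Genes tested reached 1 FPKM in 3 or more of the 6 bulk libraries, or in 2 or more of the 8 clones. The clone groups shared 1 estimate of the spread because there were 2 WT clones. P-values were adjusted by Benjamini-Hochberg over all genes, threshold 0.05. All 4 comparisons were run, and the test was checked on simulated data: of 50 genes raised by 2 on the log2 scale, 72% were recovered among 12114 genes in the bulk fit and 76% among 12904 in the clone fit for trunc/+ against WT, but of those changed by 1 only 18% to 20% and 40% to 44%. The changed genes were drawn only from those with a mean log2(FPKM + 1) above 2, so these rates do not cover members of lower level. Hosts are the shortest longer gene containing the member on its strand. Alternatives were pseudocount 0.1, TPM, quantile normalization, no filter, a mean FPKM of at least 5, the highest row per symbol, all 14 libraries in 1 fit, a replicate block, each library left out, and members outside other exons. Sequences were read from hg38, and identities computed with Biopython 1.88 in Python 3.11.15. The members and gene lists were chosen with earlier results of these data known. Genes named were those past the threshold, the 6 members per comparison of largest log2 fold change with a mean FPKM of at least 5 and no overlap, the 10 highest members, SCARNA with a mean of at least 5, those at the edge of the rule, TERC, the particle proteins, and their hosts. The sequence of 1 member and the level of 1 marker are not reported here.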

Additional observations from a re-analysis of the deposited data

How the results depend on the processing

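The clone comparisons gave 0 called members under all 17 alternatives each. In the bulk comparison 1 member was called, 0 under quantile normalization, 0 without a filter, 0 among the 13 tested members outside other exons, and 0 to 6 with 1 library left out, the 6 arising without bulk control 1 and 0 in each of the other 5. The median log2 fold change of members in the bulk comparison was 0.28 among members outside other exons and -0.17 under quantile normalization, which moved the median of all genes from 0.18 to 0.03. Among the 22 members outside other exons the median was -0.0021 for -/+ against WT (-0.19 over all tested) and -0.02 for trunc/+ against WT (-0.20). SNORA21 missed the threshold under quantile normalization (adjusted p = 0.0523, limma), without a filter (0.075) and in the fit of all 14 libraries (0.0689). No result changed sign past the threshold. The causes were not tested.

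Replicate numbers are shared by the labels, and same-numbered bulk libraries deviated with correlations of -0.17, -0.22 and 0.18. Differently numbered bulk libraries gave -0.27 to 0.41. With 3 libraries per group these values cannot tell whether the numbers pair the samples, and the main fit did not treat them as pairs. With a replicate block 3 members were called (2 higher, SNORA21 and SNORA58B, and 1 lower, SNORA41), with 123 genes higher and 97 lower against 23 and 19 without it. The block moved the median to -0.37 for trunc/+ and -0.34 for -/+ against WT. A low FPKM rests on few reads, a value under 1 FPKM standing for a coverage under 8.79 reads per base.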
